A study of Mus musculus with 31 samples.

Results

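The circadian clock genes described here are Per1, Per2, Per3, Dbp, Tef, Nr1d1, Nr1d2, Clock, Npas2 and Cry1. They were chosen by name, as every probe whose only gene name on the platform was one of these symbols. All 10 genes were measured, by 11 of the 23040 probes of the array and among 15096 named genes. Tef had 2 probes and each other gene had 1. RNA came from 31 BXD recombinant inbred strains of mice (BXD/TyJ), lines that were inbred from a cross of C57BL/6J with DBA/2J, so that each carries the allele of either parent at every locus. For each strain, RNA of 3 males aged 8 weeks was pooled, labelled with Alexa Fluor 647 and hybridised on 1 array against C57BL/6J male RNA of the same age labelled with Alexa Fluor 555. Titles name kidney, whereas the source and tissue fields of both channels name whole brain. A ratio between channels of the same tissue gives no level of a gene, and the tissue was not tested. No dye swap was made, and the labels give no hour of collection.

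In mammals the clock is a loop of transcription. CLOCK, or its relative NPAS2, pairs with ARNTL (BMAL1) at E-box sequences and switches on the Per, Cry, Nr1d, Dbp and Tef genes. PER and CRY proteins then repress that activity, the receptors NR1D1 and NR1D2 (REV-ERB alpha and beta) repress Arntl, Npas2 and Clock where RORA activates them, and DBP and TEF act at D-box sequences, among them those of Per genes. In mouse tissues outside the brain's central clock, the transcripts of Dbp, Tef, Nr1d1, Nr1d2 and the Per genes are known to peak between the day and the early night, and those of Arntl, Clock and Npas2 from the late night to the morning, with Cry1 late in the night. The first set is called the evening arm here (7 genes) and Clock, Npas2 and Cry1 the morning arm (3 genes). If the genes of an arm all peaked together, strains collected at different hours would be predicted to vary along this axis. Correlations would then be positive inside an arm and negative between the arms. The peaks inside an arm lie at differing hours, so pairs of the same arm could also be negative and the prediction is a rough one.

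Promoters are shown because they can hold the E-box and D-box sequences named above. Each is given as the 250 bases before the start of transcription in RefSeq sequence of build GRCm38.p6, read 5′ to 3′. Of the 10 genes 9 had an entry, with 13 windows in all. Capitals mark the E-box, spelled CACGTG, the E-box variant, which reads CACGTT on 1 strand and appears as AACGTG on the opposite one, and the D-box, spelled either TTATGTAA or with a central CG as TTACGTAA. Each was searched on both strands. The 5 genes below had at least 1 of them, and for Per1 and Tef the first of 2 starts is printed. The windows of Dbp, Nr1d2, Clock and Npas2 held 0 of these motifs, and Per2 had no entry. The second Per1 window held 0 of these motifs and the second Tef window an E-box at 138 bases.
Per3 promoter (chr4:151044666-151044915, minus strand): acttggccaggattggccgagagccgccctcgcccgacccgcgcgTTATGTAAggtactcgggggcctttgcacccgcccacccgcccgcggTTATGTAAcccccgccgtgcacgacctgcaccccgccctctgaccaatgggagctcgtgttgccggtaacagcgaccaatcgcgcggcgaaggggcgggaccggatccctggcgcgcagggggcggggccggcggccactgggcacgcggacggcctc
Per1 promoter (chr11:69098699-69098948, plus strand): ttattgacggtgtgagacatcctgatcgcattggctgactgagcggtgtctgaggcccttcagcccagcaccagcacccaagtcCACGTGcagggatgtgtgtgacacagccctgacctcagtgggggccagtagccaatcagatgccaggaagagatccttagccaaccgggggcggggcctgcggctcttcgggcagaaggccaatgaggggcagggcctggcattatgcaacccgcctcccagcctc
Cry1 promoter (chr10:85185055-85185304, minus strand): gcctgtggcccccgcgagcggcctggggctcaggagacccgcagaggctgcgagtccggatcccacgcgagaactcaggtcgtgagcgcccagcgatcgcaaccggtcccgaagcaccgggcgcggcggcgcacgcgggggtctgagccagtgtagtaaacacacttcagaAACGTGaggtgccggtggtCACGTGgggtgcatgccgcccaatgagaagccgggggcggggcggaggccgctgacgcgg
Tef promoter (chr15:81802423-81802672, plus strand): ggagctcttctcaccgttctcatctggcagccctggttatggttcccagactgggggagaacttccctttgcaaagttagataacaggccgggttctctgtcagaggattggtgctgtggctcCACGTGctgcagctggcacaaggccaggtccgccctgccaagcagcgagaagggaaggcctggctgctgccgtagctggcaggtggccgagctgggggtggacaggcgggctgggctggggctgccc
Nr1d1 promoter (chr11:98775378-98775627, minus strand): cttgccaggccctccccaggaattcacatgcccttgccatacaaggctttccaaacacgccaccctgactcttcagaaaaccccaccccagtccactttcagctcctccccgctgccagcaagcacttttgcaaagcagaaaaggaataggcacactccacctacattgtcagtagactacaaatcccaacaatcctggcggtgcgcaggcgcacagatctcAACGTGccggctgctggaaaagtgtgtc
Per3 held 2 copies of the D-box TTATGTAA, 205 and 158 bases before its start, in a motif found in 0.819% of all 32851 promoter windows. Per1 had an E-box 166 bases before its start, Cry1 an E-box at 60 and the variant at 79 bases, Tef an E-box at 127 bases and Nr1d1 the variant at 28 bases. The E-box was found in 6.02% of all windows and the variant in 3.85%. These matches describe the sequence and are not evidence of binding.

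All values below are log2 ratios of strain over C57BL/6J, the likely reading of the deposited values, and a ratio carries no level of a gene. Sorted values were identical in all 31 arrays (median 0.0127, SD 0.602), correlations between arrays ran from -0.0926 to 0.808, and 20.6%, 11.3% and 9.34% of the variance lay on the leading 3 principal components. The 232 spots named Gapdh had an SD within an array of 0.370 to 0.987. For the 902 genes with 2 probes, the median correlation of both probes over strains was 0.0196, and 3.99% of these genes had one over 0.5. For Tef it was 0.217. Probes of the same gene thus typically agreed little, and a single probe is not an assured measure of its gene. The 31 arrays each hold another strain, so p-values measure the spread between arrays, and an effect of the strain and one of its array cannot be told apart.

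Dbp, a D-box activator and one of the strongest rhythmic output genes of mouse tissues, stood out by its spread over strains. Its ratio ran from -2.23 in BXD6 through a median of 0.08 to 0.82 in BXD34. The SD of 0.969 was larger than that of 99.0% of all genes, whose median SD was 0.358. In 9 strains Dbp was below -0.8 (BXD6, BXD27, BXD33, BXD14, BXD1, BXD13, BXD12, BXD5 and BXD2), and in 22 strains it was above -0.7. The widest gap between neighbouring strains, 0.488, lay between -1.72 in BXD13 and -1.24 in BXD12. Below it were BXD6, BXD27, BXD33, BXD14, BXD1 and BXD13, at -2.23 to -1.72. BXD12, BXD5 and BXD2 lay above it at -1.24 to -0.83, so the 9 strains below -0.8 were not 1 tight group.

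**Figure D1:**
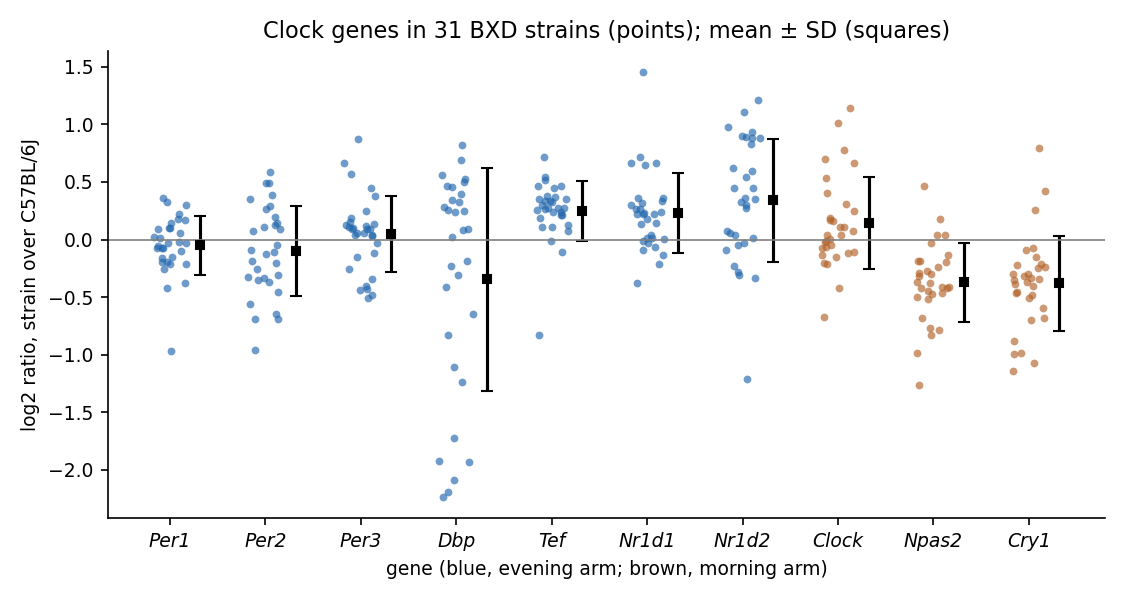
Log2 ratio of strain over C57BL/6J (vertical axis) for each clock gene (horizontal axis), 1 point for each of 31 BXD strains, with squares and bars for the mean and SD. Dbp spreads from -2.23 to 0.82, while Per1 and Tef have SDs of 0.257 and 0.261.

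Low Dbp values were more common among low strain numbers, a difference that was not tested. Among the 21 strains numbered 15 to 42, Dbp had a lowest value of -2.19, a median of 0.24 and a highest of 0.82, and 2 of them were below -0.8. Among the 10 strains numbered 1 to 14, the lowest was -2.23, the median -1.17 and the highest 0.40, and 7 were below -0.8. Both sets overlapped over most of the range. Dbp correlated with the first principal component of all probes at r = 0.622 (31 arrays that share probes and reference), and Per2 did so at r = -0.711. The probe next before Dbp in the table had r = 0.424 with it and the one next after had 0.116, and the probe closest in pattern, at r = 0.893, lay 8 rows away and had no gene name here. With the mean of spots at the same print position subtracted, 1367 genes were related to Dbp, against 1498 without that step. The part of array order in the Dbp pattern was not tested.

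**Figure D2:**
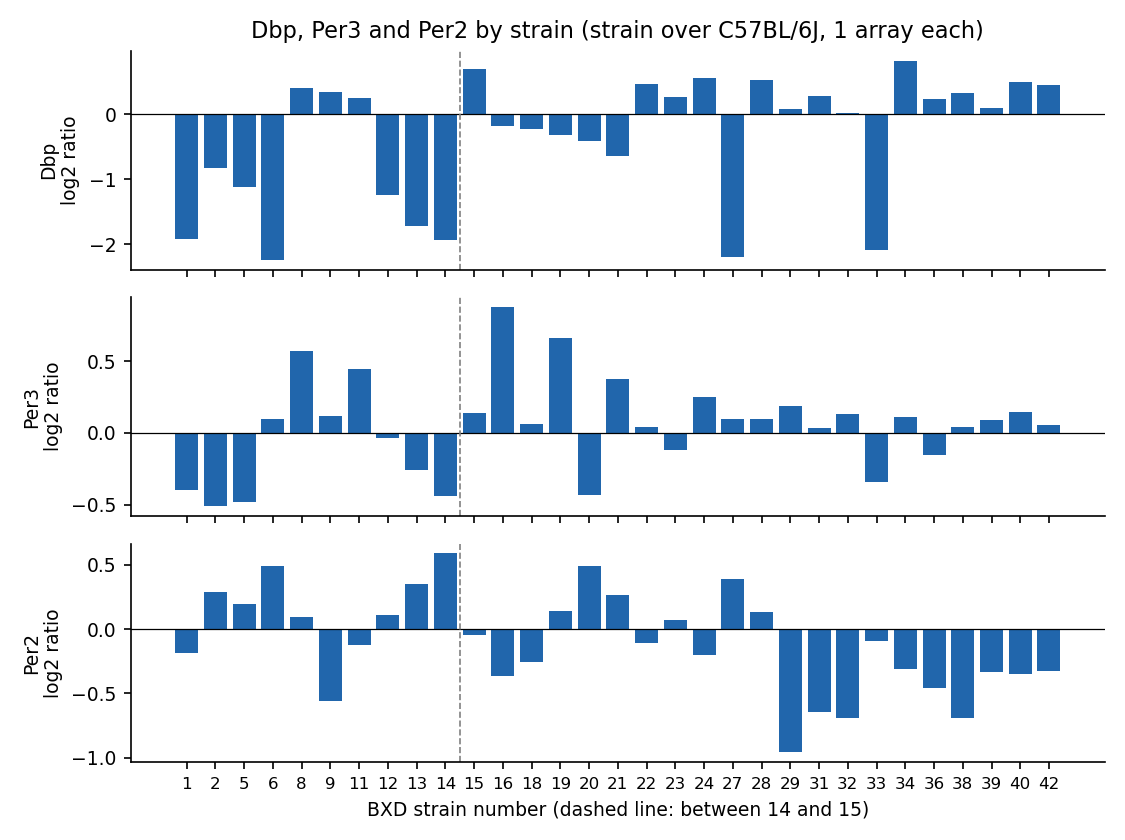
Log2 ratio of strain over C57BL/6J (vertical axes) of Dbp, Per3 and Per2 in 31 BXD strains in order of strain number (horizontal axis), 1 bar per array. Of the 9 strains with Dbp below -0.8, 7 lie left of the dashed line.

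The other evening-arm genes varied far less than Dbp. Nr1d2 had an SD of 0.535, above that of 82.9% of genes, with a lowest value of -1.21 in BXD9, a median of 0.35 and a highest of 1.21 in BXD34. Nr1d1 ran from -0.37 in BXD38 through a median of 0.22 to 1.46 in BXD9, with an SD of 0.344. BXD9 thus held both the highest Nr1d1 and the lowest Nr1d2 value. Per2, a repressor of the loop, had an SD of 0.391 and ran from -0.96 in BXD29 through -0.11 to 0.59 in BXD14. Per3 ran from -0.51 in BXD2 through 0.09 to 0.88 in BXD16 (SD 0.331), and Per1 from -0.97 in BXD36 through -0.03 to 0.36 in BXD20 (SD 0.257). For Tef, a relative of DBP, the mean of both probes ran from -0.83 in BXD42 through 0.27 to 0.72 in BXD8 (SD 0.261), which placed Tef and Per1 among the less variable genes of the array (larger than 16.7% and 15.5% of genes).

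In the morning arm the spreads were close to that of a typical gene. Cry1, a repressor, ran from -1.14 in BXD18 through a median of -0.35 to 0.80 in BXD11 (SD 0.412). Clock ran from -0.67 in BXD34 through 0.04 to 1.14 in BXD28 (SD 0.398). Npas2 ran from -1.26 in BXD38 through -0.38 to 0.47 in BXD15 (SD 0.343).

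Against C57BL/6J, the mean over the 31 strains was tested for every gene with limma and Benjamini-Hochberg adjustment over all genes. Of the 10 clock genes, 3 were higher (26.5% of all genes were) and 2 were lower (29.3% of all genes), so the 5 called of 10 lay near the 55.8% called over the whole table. The 3 that rose were all of the evening arm and the 2 that fell all of the morning arm. Among the 5 that did not pass, Dbp, Per1 and Per2 of the evening arm averaged below 0. Clock of the morning arm averaged above 0, as did Per3 of the evening arm. Nr1d2 rose by 0.34 ± 0.0919 (SE, n = 31 strains, limma adjusted p = 0.00214) and was above 0 in 23 strains. Nr1d1 rose by 0.23 ± 0.0617 (limma adjusted p = 0.00204, above 0 in 24 strains) and Tef by 0.25 ± 0.0491 (limma adjusted p = 5.67e-05, above 0 in 28 strains). Counted by probe, 3 of the 11 clock probes were higher (27.2% of all probes) and 2 lower (30.3%), where 57.5% of all probes passed in either direction. The Tef probes stood at 0.42 and 0.08, with limma adjusted p over all probes of 8.09e-06 and 0.137. Cry1 fell to -0.38 ± 0.0724 (limma adjusted p = 3.90e-05, below 0 in 28 strains) and Npas2 to -0.37 ± 0.0616 (limma adjusted p = 4.97e-06, below 0 in 27 strains).

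The remaining 5 genes did not pass. Dbp averaged -0.35 ± 0.163 (limma adjusted p = 0.0693), with 17 strains above 0 and 14 below, and Clock 0.14 ± 0.0701 (limma adjusted p = 0.0818). Dbp passed without BXD15 (-0.38) or without BXD34 (-0.39), and Clock without BXD20 (0.16) or without BXD34 (0.17). In the strains numbered 32 or lower both passed, Dbp as lower (-0.46) and Clock as higher (0.21), which gave 4 genes higher and 3 lower with 1 gene of each arm against the split above. Without BXD15 and BXD38 Dbp also passed as lower (-0.41). Per1 averaged -0.05, Per2 -0.10 and Per3 0.05, with limma adjusted p of 0.394, 0.217 and 0.527. Over the 10 genes the median of these means was -0.00164, against -0.01 over all genes. The position of a spot in the repeat of 480 table rows held 36.7% of the variance of the mean ratio over probes. With position removed, Per3 (0.19) and Clock (0.24) also passed as higher, which gave 5 higher genes, and Clock is of the morning arm. Testing against a change of 0.2 kept Cry1 and Npas2 but left 0 of the clock genes higher. A mean ratio against 1 common reference without dye swap holds strain, reference and dye effects together, and these cannot be told apart.

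**Figure D3:**
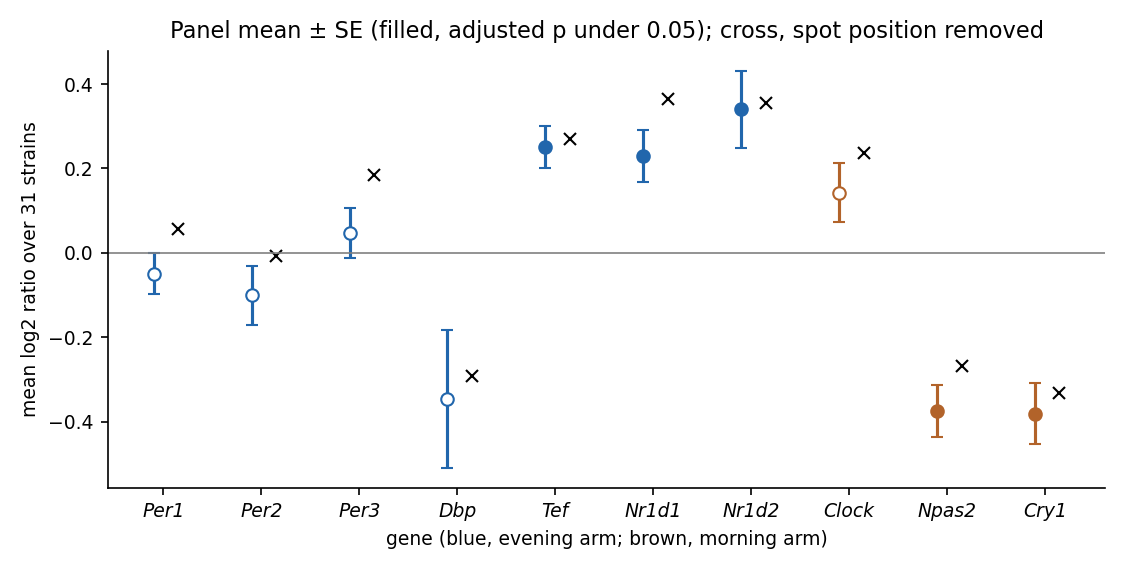
Mean log2 ratio over 31 strains with its SE (vertical axis) for each clock gene (horizontal axis), filled where the limma adjusted p was under 0.05, and a cross for the mean after removal of spot position. Tef, Nr1d1 and Nr1d2 lie above 0 and Npas2 and Cry1 below 0 with both treatments.

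Whether the arms opposed each other over strains was read from the 45 pairs of the 10 genes. Within the evening arm 10 of 21 pairs had a correlation above 0, and across the arms 11 of 21 pairs had one below 0. Over all 113937060 pairs of genes, 50.0% were above 0 and 50.0% below. Of the 3 pairs in the morning arm, 2 were above 0. The median correlation was -0.0369 in the evening arm, 0.00654 in the morning arm and -0.0103 across the arms. Sizes over 0.5 were reached by 2 of the 45 pairs (4.44%), against 5.23% of all gene pairs. The signs inside and between the arms were thus split about evenly. The pattern predicted for arms whose genes peak together was not seen in these counts. Probes of the same gene typically agreed little over strains, as given above, so counts of this kind could miss such a pattern. Genes of an arm peak at differing hours and no hour of collection is given, so the part of collection hour was not tested.

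**Figure D4:**
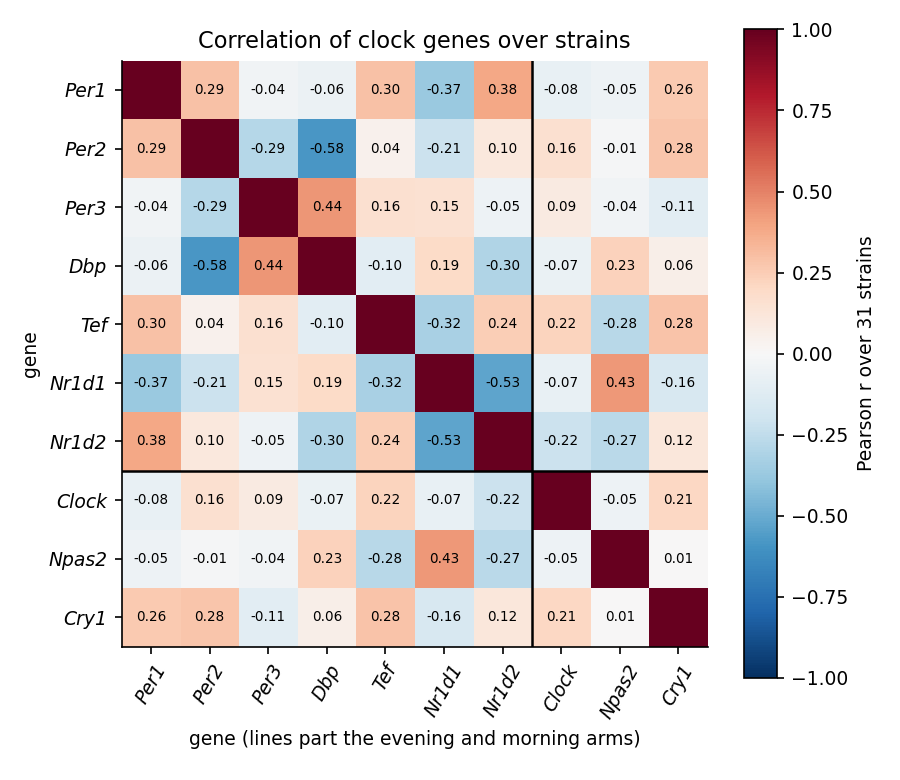
Pearson correlation over 31 strains for each pair of clock genes (both axes list the genes, colour and number give r), with black lines between the evening and morning arms. Both pairs beyond 0.5 in size, Dbp with Per2 and Nr1d1 with Nr1d2, are negative and lie inside the evening arm.

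Dbp and Per2, both of the evening arm, ran against each other. The Pearson correlation was -0.581 (permutation p = 0.00053, 2-sided, 31 strains) and Spearman's rho -0.523 (permutation p = 0.00272). In a limma fit of every gene on Dbp, in which 9.92% of all genes passed, Per2 was the only clock gene that did of the 9 others, with a slope of -0.23 ± 0.0612 per unit of Dbp (adjusted p = 0.0147). With Per2 as the covariate, 16.8% of all genes passed and Dbp was among them (adjusted p = 0.00555). Without BXD14 and BXD29, the strains farthest from the Per2 median, r was -0.556. It was -0.409 within strains 15 to 42 and -0.646 within strains 1 to 14. With spot position removed it was -0.593 and passed. With the first principal component removed it was -0.252 and no longer passed.

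Dbp and Per3 moved in the same direction with r = 0.442 (permutation p = 0.0131) and rho = 0.410 (permutation p = 0.0226). The limma fit on Dbp gave a slope of 0.15 ± 0.0577, which did not pass over all genes (adjusted p = 0.0867). The relation was 0.134 within strains 15 to 42 and 0.656 within strains 1 to 14. Without BXD16 and BXD2, farthest from the Per3 median, r was 0.483. It was 0.325 with the first principal component removed and 0.104 with the first 3 removed. Dbp had r = -0.0622 with Per1, -0.103 with Tef, 0.192 with Nr1d1 and -0.299 with Nr1d2. In the morning arm r was -0.0695 with Clock, 0.233 with Npas2 and 0.0553 with Cry1. Limma adjusted p for these 7 genes on Dbp ran from 0.254 for Nr1d2 to 0.872 for Cry1. Within strains 1 to 14 r was 0.732 with Clock and 0.684 with Tef, against -0.202 and -0.223 within strains 15 to 42. With Per1 it was -0.181 and 0.000815, and with Nr1d1, Nr1d2, Npas2 and Cry1 both strain sets had the same sign. Several of the correlations over all strains also moved when components were removed, though none then passed. With the first component removed r was 0.495 with Cry1 and 0.391 with Per1, and with the first 3 removed 0.550 and 0.356. Tef (0.211) and Clock (0.129) also stood above 0 with the first component removed, Nr1d1 was at -0.107 with the first 3 removed, and Nr1d2 was at 0.135 with spot position removed.

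Nr1d1 and Nr1d2, paralogous repressors, had r = -0.530 (permutation p = 0.00304), but rho was -0.269 (permutation p = 0.142). With Nr1d2 as the covariate 6.56% of all genes passed, Nr1d1 among them (limma adjusted p = 0.0402), whereas with Nr1d1 as the covariate 0.252% of genes passed and Nr1d2 did not (limma adjusted p = 0.146). The value rested on BXD9, without which r was -0.274. Within strains 15 to 42 r was -0.283, and within strains 1 to 14, which include BXD9, it was -0.816. Nr1d2 correlated with the third principal component at r = -0.804. Nr1d1 and Npas2, of opposite arms, had r = 0.434 (permutation p = 0.0170) and rho = 0.238 (permutation p = 0.197). The value of r was 0.477 within strains 15 to 42 and 0.422 within strains 1 to 14. It dropped to 0.163 without BXD9 and BXD38, and the relation did not pass in the fit on Nr1d1 (limma adjusted p = 0.372).
The other clock genes gave few relations as covariates. Genes that passed in the limma fits made up 0.159% of all genes for Per3, 0.643% for Tef and 0.0927% for Clock, and 0% for Npas2 and Cry1. In each of these 5 fits 0 of the 9 other clock genes passed, and at an unadjusted p under 0.05 it was 1 gene for Per3, 1 for Npas2 and 0 for Tef, Clock and Cry1.

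**Figure D5:**
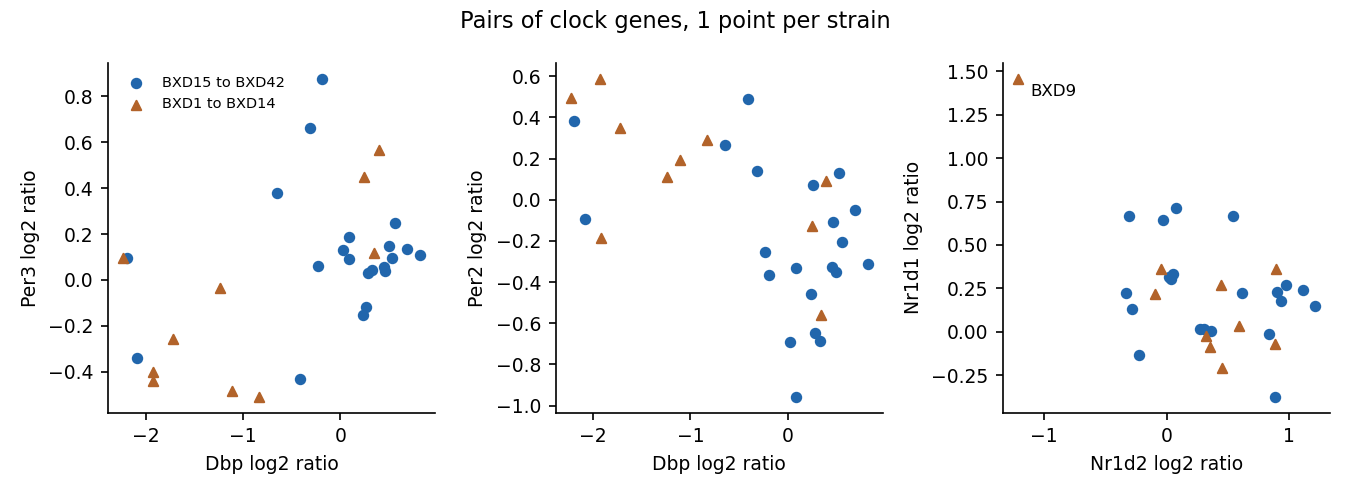
Log2 ratios of Per3 against Dbp, Per2 against Dbp and Nr1d1 against Nr1d2 (1 point per strain, circles for BXD15 to BXD42 and triangles for BXD1 to BXD14). Pearson's r is 0.442, -0.581 and -0.530, and BXD9 lies far from the other strains in the last panel.

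Other genes of the clock were read from a list of 22, of which 14 were measured. Against C57BL/6J 3 were higher (Btrc, Bhlhe40 and Cry2) and 4 lower (Timeless, Rora, Csnk2a1 and Nfil3), so 7 of 14 passed with limma, near the 55.8% of all genes. Arntl, the partner of CLOCK and NPAS2, averaged -0.09 ± 0.0604 (limma adjusted p = 0.185) and ran from -0.70 to 0.97. Cry2 rose by 0.12 ± 0.0458 (limma adjusted p = 0.0203), opposite in sign to Cry1. Nfil3, a repressor at D-boxes, fell to -0.17 ± 0.0396 (limma adjusted p = 5.16e-04). Over strains Arntl had r = 0.0847 with Dbp (permutation p = 0.654), -0.000121 with Nr1d1 (permutation p = 1.00) and -0.435 with Nr1d2 (permutation p = 0.0160). The Nr1d2 relation was -0.606 within strains 15 to 42 and -0.0113 within strains 1 to 14.

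Rora, the activator that competes with the NR1D receptors, followed Dbp most closely of these. Its r with Dbp was 0.664 (permutation p = 4.00e-05) and its rho 0.673 (permutation p = 8.00e-05), with a slope of 0.29 ± 0.0613 in the fit on Dbp (limma adjusted p = 0.00313). It was the 1 gene of the 14 to pass there, where 9.92% of all genes passed. The value was 0.520 within strains 15 to 42 and 0.723 within strains 1 to 14, and 0.443, no longer passing, with the first principal component removed. Rora also passed against Per2 (r = -0.511, limma adjusted p = 0.0233), where 16.8% of all genes passed. It passed against Nr1d2 as well (r = -0.564, limma adjusted p = 0.0188), where 6.56% of all genes did. With Per1 as the covariate, where 3.94% of all genes passed, Bhlhe40, an E-box repressor, rose with it (r = 0.550, limma adjusted p = 0.0417) and Timeless fell with it (r = -0.526, limma adjusted p = 0.0497). Csnk1e, a kinase of PER proteins, fell with Nr1d2 (r = -0.513, limma adjusted p = 0.0448). None of these relations passed once the first principal component had been removed, but not all shrank alike. The correlation was then -0.507 for Nr1d2 and Rora and -0.437 for Nr1d2 and Csnk1e, against -0.107 for Per2 and Rora. For Per1 it was 0.293 with Bhlhe40 and -0.288 with Timeless. With spot position removed, Nr1d2 had -0.129 with Rora and -0.133 with Csnk1e, Per1 had 0.370 with Bhlhe40 and -0.302 with Timeless, and none of these 4 passed. Per2 with Rora passed there, at -0.609, and Dbp with Rora at 0.672.

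Genes most like Dbp over the 31 strains were named by rank of Pearson's r among all genes. The highest were 4930515B02Rik (0.845), Abhd5 (0.788), Rcvrn (0.785), 1700048F04Rik (0.784) and Lca5 (0.783). The lowest were Eln (-0.834), Mmp17 (-0.787), Rarg (-0.783), Fads3 (-0.782) and Inpp5b (-0.768). Their limma adjusted p on Dbp ran from 5.38e-06 to 7.79e-04, and none of these 10 genes belongs to the clock lists. Rarg was measured by 5 probes and the other 9 genes by 1 each.

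Marker lists of cell types and of hormone or stress responses were set beside Dbp. The mean of 8 measured adipose genes of 10 ran from -0.22 in BXD22 to 1.18 in BXD12 and had r = -0.475 with Dbp (permutation p = 0.00703, adjusted over 9 lists 0.0633; rho = -0.382). The mean of all 12 proximal tubule genes ran from -0.67 in BXD38 to 1.57 in BXD2 with r = -0.394 (permutation p = 0.0283, adjusted 0.127). The list of 9 measured glucocorticoid-response genes of 10 had r = -0.278 (permutation p = 0.133, adjusted 0.299) and that of 12 immediate early genes r = 0.0422 (permutation p = 0.822). The 5 measured podocyte genes of 6 had r = -0.344 (permutation p = 0.0573, adjusted 0.172). For 8 lymphocyte and macrophage genes r was 0.231 (adjusted 0.385), for 10 genes of the loop, distal tubule and collecting duct -0.164 (adjusted 0.575) and for 8 liver genes 0.134 (adjusted 0.604). For 11 measured neuron and glia genes of 12 r was -0.0885 (permutation p = 0.636), and list means ran from -0.28 to 0.14. The median SD of a gene over strains was 0.287 in that list and 0.358 over all genes. It was 0.573 for the proximal tubule list, 0.414 for the loop, distal tubule and collecting duct, 0.329 for podocytes and 0.440 for liver. The part of cell composition in the clock values was not tested. In bulk RNA, fewer cells of a type and less RNA per cell cannot be told apart.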

How the data were processed

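Deposited values were log2 ratios of strain over reference for 23040 probes in 31 arrays, with 0 missing. Per the submitters' processing notes the authors used R 2.0.0 and limma; background correction, log base and direction are not given in the sources used here, and base 2 and direction follow limma's red over green convention. Sorted values are identical in all arrays, as after quantile normalization. Signal over background is unknown and the number of arrays limits the precision. Of all probes 16874 had 1 gene name, of which 16196 matched RefSeq by gene number; probes of a gene were averaged.

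Tests used limma 3.58.1 in R 4.3.3 (lmFit, eBayes, 2-sided, adjusted p threshold 0.05 over all genes or probes), on the mean over strains and on each gene's relation to a clock gene, and were checked on simulated data. Correlations had permutation p from 100000 resamples. The members and lists were chosen with earlier results of these data known. Named were all members, set genes of the wider clock list, other listed genes chosen after their values were seen (Rora, Bhlhe40, Timeless, Csnk1e, Btrc, Csnk2a1), and the 5 genes most and least like Dbp. Hlf, Ciart and Bhlhe41 of that list were not analysed here.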

Additional observations from a re-analysis of the deposited data

How the results depend on the processing

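Counts of clock genes and probes called against C57BL/6J were the same with array weights, robust eBayes and a filter on spread. Repeated quantile normalization could not change them, because sorted values were already identical in all arrays. Array median subtraction only shifted every value by the shared median of 0.0127, and these counts stayed the same. Without BXD15 and BXD38, 3 clock genes were lower in place of 2. Clock probes called higher numbered 3, against 6 with spot position removed, 5 in strains numbered 32 or lower and 1 when tested against a change of 0.2. Clock genes called higher numbered 3, against 5 with spot position removed and 0 when tested against 0.2, where 2597 genes in all passed in place of 8418. The correlation of Dbp and Per2 (-0.581) kept its sign but did not pass with the first principal component removed (-0.252), the first 3 removed (-0.284), in strains 15 to 42 (-0.409), in strains 1 to 14 (-0.646) and on ranks (-0.523), and ran from -0.623 to -0.535 with 1 strain left out. That of Nr1d2 and Nr1d1 (-0.530) did not pass in those settings (-0.500, -0.541, -0.283, -0.816 and -0.269) or with spot position removed (-0.505), and ran from -0.591 to -0.274 with 1 strain left out, not passing without BXD1, BXD9, BXD21, BXD27, BXD36 or BXD38. Genes related to Dbp numbered 1498, against 174 and 49 with 1 and 3 components removed, 48 in strains 15 to 42, 0 in the 10 strains 1 to 14 and 226 on ranks. Smaller subsets hold fewer strains; for the other settings the cause was not tested. Evening-arm pairs above 0 numbered 9 to 13 and pairs across the arms below 0 numbered 10 or 11 in all 9 alternatives, and 9 to 11 and 9 to 13 with 1 strain left out. No paired analysis was possible because the design has 1 group of strains and each strain has 1 array.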
